A study of Mus musculus with 8 samples.

Results

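The 9 genes described here encode transcription factors of the mesenchymal transition: Twist1, Twist2 and Tcf21 of the basic helix-loop-helix (bHLH) class, the zinc finger factors Snai1, Snai2, Zeb1 and Zeb2, and the homeobox factors Prrx1 and Prrx2. They were taken by gene symbol from a list of 9 names and are 9 of the 54532 genes in the count table. Of the 9 genes, 8 had enough counts to be tested, and Tcf21 did not. Embryonic fibroblasts of wild-type mice were grown for 4 days in 4 different media, and 2 RNA libraries were sequenced for each medium. The group CFAE+8 received a GSK-3 inhibitor (CHIR99021), Forskolin, which activates adenylyl cyclase, AM580, which activates retinoic acid receptor alpha, EPZ04777 (spelled as in the labels), which inhibits the H3K79 methyltransferase DOT1L, and A-83-01, which inhibits the TGF-beta type I receptor. The group CFAE+8+MSC received the same compounds and MSC2530818, an inhibitor of the kinases CDK8 and CDK19. In the group CFAE+6, E-616452, another inhibitor of the TGF-beta type I receptor, took the place of A-83-01. The control cells, called MEF, stayed in fibroblast medium. By its title, the series belongs to chemical screening work on cell reprogramming in which CDK8 is named as a barrier. The labels used here give no doses. Nor do they tell if both libraries of a medium were separate cultures, so the p-values cover just the library-to-library spread, which may be technical.

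During gastrulation, neural crest migration and wound repair, epithelial cells can lose their junctions and become motile mesenchymal cells. SNAIL and ZEB proteins bind E-box motifs in DNA and recruit corepressors to genes of epithelial junctions, such as Cdh1, which encodes E-cadherin. TWIST proteins bind E-boxes as dimers with E proteins, and ID proteins sequester those partners. PRRX proteins and TCF21 act in the mesenchyme of the limb, face and inner organs, and fibroblasts are mesenchymal cells that normally express most of these factors. TGF-beta signalling is a well-known inducer of SNAIL and ZEB genes, and GSK-3 marks SNAI1 protein for degradation. RNA levels say nothing of protein amount or activity.

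The 8 libraries held 10958430 to 11913143 counts each. Levels are CPM, counts relative to the library total, after scaling for library composition, and fold changes, standard errors (SE), 95% intervals and Benjamini-Hochberg adjusted p-values come from edgeR's quasi-likelihood test over 15470 genes, with a threshold of 0.05. All 10 fibroblast markers on the list had at least 1 CPM in every group, but their summed level was 12837 to 12916 CPM in CFAE+8, 12821 to 13228 CPM in CFAE+8+MSC and 11881 to 12346 CPM in CFAE+6, against 30407 to 31166 CPM in MEF. The largest contributor to that sum was Col1a1, a fibrillar collagen gene, with 4058 CPM in CFAE+8, 4324 CPM in CFAE+8+MSC and 3506 CPM in CFAE+6, against 14726 CPM in MEF. The markers Thy1, Pdgfra, Lum and Fap had higher means in every cocktail than in MEF, such as 1100, 1506 and 1535 CPM for Thy1 in CFAE+8, CFAE+8+MSC and CFAE+6, against 681 CPM in MEF. Markers of other cells that could be present in such cultures also moved with the media. The 9 macrophage markers summed to 36.6 to 37.9 CPM in CFAE+8, 20.98 to 21.2 CPM in CFAE+8+MSC and 19.3 to 20.6 CPM in CFAE+6, against 172 to 173 CPM in MEF, and Fcgr1 was at 0 in the cocktail groups. The 6 mesothelial markers summed to 3.39 to 3.50 CPM in CFAE+8, 17.1 to 19.7 CPM in CFAE+8+MSC and 16.8 to 18.4 CPM in CFAE+6, against 154 to 156 CPM in MEF, and Lrrn4 was at 0 in the cocktail groups. The 6 skeletal muscle markers summed to 10.1 to 11.7 CPM in CFAE+8 and 34.7 to 35.5 CPM in CFAE+8+MSC. In CFAE+6 they summed to 26.7 to 27.7 CPM, against 86.6 to 95.3 CPM in MEF. Most of the MEF sum was Des at 69.3 CPM. Myod1 averaged 0.127 CPM in CFAE+8, 0.972 CPM in CFAE+8+MSC and 0.786 CPM in CFAE+6, against 0.931 CPM in MEF. Myf5 had 1 count in MEF and 0 in the cocktail groups. The 6 endothelial markers summed to 25.0 to 27.1 CPM in CFAE+8, 52.1 to 54.3 CPM in CFAE+8+MSC and 54.95 to 60.9 CPM in CFAE+6, against 18.8 to 19.1 CPM in MEF. Most of the endothelial sum was Kdr in every group, and Pecam1 averaged under 1 CPM in each. The 6 neural crest and glia markers summed to 18.4 to 19.8 CPM in CFAE+8, 31.2 to 35.6 CPM in CFAE+8+MSC and 34.6 to 35.3 CPM in CFAE+6, against 18.8 to 19.6 CPM in MEF, with none at 0. The part of these shifts in the results that follow was not tested. In RNA from whole cultures, fewer cells of a type and less RNA per cell cannot be told apart.

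Against MEF, 6 of the 8 tested factors rose in each cocktail: Twist1, Twist2, Snai1, Snai2, Zeb2 and Prrx2. Zeb1 fell in CFAE+8 and CFAE+6, and its smaller fall in CFAE+8+MSC passed the threshold only narrowly. Prrx1 fell in CFAE+8 and CFAE+6 and did not pass the test in CFAE+8+MSC. The 3 comparisons share the MEF libraries and are given side by side. In CFAE+8, 8 of 8 factors passed the test, where 62.0% of all tested genes did. With MSC2530818 added, 7 of 8 passed, where 64.1% of all tested genes did. In CFAE+6 8 of 8 passed, where 63.1% of all tested genes did. Over all tested genes, 30.8% rose and 31.3% fell in CFAE+8 over MEF, 31.9% rose and 32.2% fell in CFAE+8+MSC, and 31.6% rose and 31.5% fell in CFAE+6. The median log2 fold change of the 8 factors over MEF was 0.81 for CFAE+8, 0.86 for CFAE+8+MSC and 0.83 for CFAE+6, beside 0.012, 0.011 and 0.018 for all tested genes. In each cocktail 3 factors, Twist1, Twist2 and Prrx2, moved by 1 log2 unit or more, as did 27.0%, 28.2% and 27.6% of all tested genes in CFAE+8, CFAE+8+MSC and CFAE+6.

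**Figure D1:**
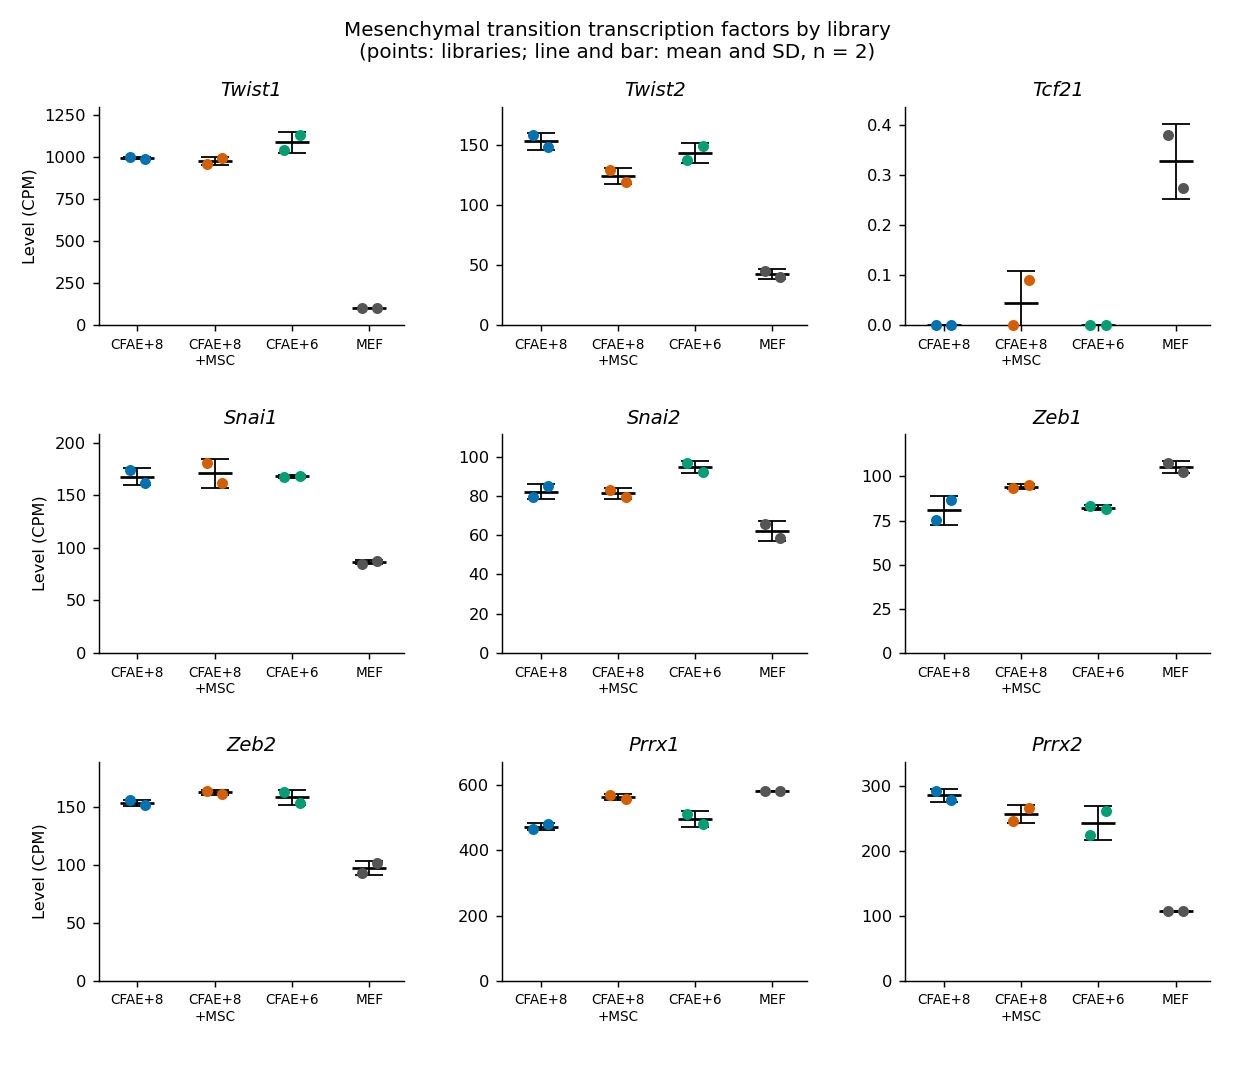
Level of each factor in CPM (vertical axes, from 0) in the 2 libraries of each medium (points), with the mean and SD (n = 2). Twist1 is near 1000 CPM in all cocktail libraries and near 103 CPM in MEF, while Zeb1 and Prrx1 are highest in MEF.

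Twist1 (ENSMUSG00000035799; mm10 chr12:33957671-33959829, plus strand) directs formation of skull and limb mesenchyme and is a classical inducer of the mesenchymal transition. Its level was 1000.01 and 989 CPM in CFAE+8, 962 and 995 CPM in CFAE+8+MSC and 1045 and 1131 CPM in CFAE+6, against 102.6 and 103.1 CPM in MEF. No cocktail library came near the MEF libraries. The log2 fold change over MEF was 3.27 ± 0.049 (SE) in CFAE+8, a 9.67-fold rise with a 95% interval of 9.02 to 10.4 and an adjusted p of 9.98e-30. It was 3.25 in CFAE+8+MSC (9.51-fold, adjusted p = 1.08e-29) and 3.40 in CFAE+6 (10.6-fold, adjusted p = 3.75e-30). Ordered by log2 fold change over all 15470 tested genes, Twist1 stood at place 424 from the top for CFAE+8, 541 for CFAE+8+MSC and 498 for CFAE+6.

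Twist2 (ENSMUSG00000007805; chr1:91801461-91848028, plus strand), which acts in dermal fibroblasts and bone, rose less. Its level was 158 and 148 CPM in CFAE+8, 129 and 119 CPM in CFAE+8+MSC and 137 and 149 CPM in CFAE+6, against 45.3 and 39.8 CPM in MEF. The rise over MEF was 3.60-fold in CFAE+8 (log2 1.85 ± 0.073 SE, adjusted p = 2.73e-19), 2.92-fold in CFAE+8+MSC (log2 1.54, adjusted p = 3.36e-17) and 3.37-fold in CFAE+6 (log2 1.75, adjusted p = 1.15e-18). Of the exon length of Twist2, 46.5% overlaps the antisense gene Gm29100. That gene held 455 counts over the 8 libraries, while Twist2 held 3603 counts in CFAE+8 and 912 counts in MEF. Because the library kit does not mark strand, reads of the overlap cannot be told apart and the values of Twist2 are uncertain. Twist1 overlaps no other exon.

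The promoter windows of both genes are shown because the paralogues rose by different factors. They run from 250 bases before to 50 bases after the start site (RefSeq, GRCm38.p6), at chr12:33957421-33957720 for Twist1 and chr1:91801211-91801510 for Twist2, both on the plus strand. Capitals mark matches, on either strand, to 5 motifs: TATAA (TATA box), CACCTG (the E-box form bound by SNAIL and ZEB proteins), TCAAAG (core of the TCF/LEF site of Wnt signalling), TGACG (core of the CREB site of cAMP signalling) and GGAATG (TEAD).
Twist1: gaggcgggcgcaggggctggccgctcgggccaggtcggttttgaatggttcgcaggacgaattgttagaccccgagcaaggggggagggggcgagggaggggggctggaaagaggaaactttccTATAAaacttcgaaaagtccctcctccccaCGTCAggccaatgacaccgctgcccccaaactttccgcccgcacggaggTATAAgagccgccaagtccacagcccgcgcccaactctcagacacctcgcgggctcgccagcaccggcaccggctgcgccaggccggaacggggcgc
Twist2: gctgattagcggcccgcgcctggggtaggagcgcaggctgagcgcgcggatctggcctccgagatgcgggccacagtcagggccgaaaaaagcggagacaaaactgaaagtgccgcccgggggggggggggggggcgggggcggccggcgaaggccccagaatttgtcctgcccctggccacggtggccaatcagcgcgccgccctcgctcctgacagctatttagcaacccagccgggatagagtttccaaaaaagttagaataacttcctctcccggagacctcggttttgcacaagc
The Twist1 window holds TATAA at -126 and -47 from the start site and the CREB core, as CGTCA, at -96. The Twist2 window holds none of the 5 motifs. Windows of Zeb2, which rose less than both TWIST genes, also hold TATAA and TGACG. The relation of motifs to the rises was not tested. Among 32851 RefSeq windows of the same length, 24.87% hold TATAA, 20.21% hold CACCTG, 16% hold TCAAAG, 20.81% hold TGACG and 14.66% hold GGAATG. G and C make up 66% of the Twist1 window and 64.7% of the Twist2 window, beside a median of 52.7% over all windows. A match is a description of the letters and not a measured binding site.

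Snai1 (ENSMUSG00000042821; chr2:167538195-167542814, plus strand), the zinc finger repressor needed for mesoderm formation at gastrulation, rose by nearly the same factor in each cocktail. Its level was 174 and 162 CPM in CFAE+8, 181 and 162 CPM in CFAE+8+MSC and 167 and 169 CPM in CFAE+6, against 85.1 and 87.8 CPM in MEF. The cocktail libraries overlapped one another and all lay above MEF. The fold change over MEF was 1.94 in CFAE+8 (log2 0.96 ± 0.063 SE, adjusted p = 5.93e-14), 1.98 in CFAE+8+MSC (log2 0.99, adjusted p = 2.9e-14) and 1.94 in CFAE+6 (log2 0.96, adjusted p = 5.57e-14). The Snai1 promoter window (chr2:167537945-167538244, plus strand, GRCm38.p6) is shown because it carries the E-box form that SNAIL proteins themselves bind.
Snai1: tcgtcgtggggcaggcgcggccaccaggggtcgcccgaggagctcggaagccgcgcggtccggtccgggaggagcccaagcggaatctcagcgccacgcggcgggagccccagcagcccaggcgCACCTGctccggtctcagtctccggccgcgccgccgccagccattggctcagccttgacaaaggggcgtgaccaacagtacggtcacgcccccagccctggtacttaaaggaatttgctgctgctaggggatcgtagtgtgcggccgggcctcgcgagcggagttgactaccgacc
It holds CACCTG (in capitals) at -126 and none of the other 4 motifs, and G and C make up 70% of its bases.

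Snai2 (ENSMUSG00000022676; chr16:14705852-14709385, plus strand), the SNAIL family member known as Slug from chick neural crest, had 79.6 and 85.0 CPM in CFAE+8, 83.3 and 79.3 CPM in CFAE+8+MSC and 96.9 and 92.4 CPM in CFAE+6, against 65.8 and 58.3 CPM in MEF. All cocktail libraries were above both MEF libraries, and the CFAE+6 libraries were the highest. The rise was 1.33-fold in CFAE+8 (log2 0.41 ± 0.072 SE, adjusted p = 1.46e-05), 1.31-fold in CFAE+8+MSC (log2 0.39, adjusted p = 2.7e-05) and 1.53-fold in CFAE+6 (log2 0.61, adjusted p = 1.34e-08).

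The 2 ZEB genes went opposite ways. Both encode large repressors with 2 zinc finger clusters around a homeodomain. Zeb2 (ENSMUSG00000026872; chr2:44983632-45117395, minus strand), known for its part in neural crest formation, had 156 and 152 CPM in CFAE+8, 165 and 162 CPM in CFAE+8+MSC and 164 and 154 CPM in CFAE+6, against 93.1 and 101.9 CPM in MEF. It rose 1.58-fold in CFAE+8 (log2 0.66 ± 0.060 SE, adjusted p = 8.26e-11), 1.67-fold in CFAE+8+MSC (log2 0.74, adjusted p = 6.29e-12) and 1.63-fold in CFAE+6 (log2 0.70, adjusted p = 1.99e-11). Its antisense gene Zeb2os held 21 counts over the 8 libraries.

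Zeb1 (ENSMUSG00000024238; chr18:5591860-5775467, plus strand), a repressor of Cdh1 and of the miR-200 microRNAs, had 75.1 and 86.5 CPM in CFAE+8, 93.4 and 95.2 CPM in CFAE+8+MSC and 83.3 and 81.4 CPM in CFAE+6, against 107.7 and 102.8 CPM in MEF. Every cocktail library was below both MEF libraries. The log2 fold change over MEF was -0.38 ± 0.068 (SE) in CFAE+8 (adjusted p = 1.69e-05), -0.35 in CFAE+6 (adjusted p = 4.49e-05) and -0.16 in CFAE+8+MSC (adjusted p = 0.0409). The last call was lost under 7 of 10 alternative analyses, with adjusted p-values between 0.0388 and 0.243 over all 10. Leaving out any 1 of the 4 libraries compared ended it, with log2 fold changes of -0.12 without MEF replicate 1, -0.20 without MEF replicate 2, -0.14 without CFAE+8+MSC replicate 1 and -0.16 without CFAE+8+MSC replicate 2. The hairpin loci of the miR-200 family (Mir200a, Mir200b, Mir200c, Mir141 and Mir429), which target Zeb1 and Zeb2 RNA, had 0 counts in all 8 libraries, in a protocol that does not measure mature microRNAs.

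The PRRX genes also parted. Prrx2 (ENSMUSG00000039476; chr2:30834972-30881251, plus strand), a paired-type homeobox factor of limb and craniofacial mesenchyme, had 293 and 279 CPM in CFAE+8, 247 and 266 CPM in CFAE+8+MSC and 225 and 262 CPM in CFAE+6, against 106.8 and 107.8 CPM in MEF. It rose 2.66-fold in CFAE+8 (log2 1.41 ± 0.063 SE, adjusted p = 6.02e-18), 2.39-fold in CFAE+8+MSC (log2 1.26, adjusted p = 1.15e-16) and 2.27-fold in CFAE+6 (log2 1.18, adjusted p = 4.76e-16). Prrx1 (ENSMUSG00000026586; chr1:163245119-163313710, minus strand), which is widely used to mark limb bud mesenchyme and fibroblasts, had 465 and 480 CPM in CFAE+8, 570.0 and 558 CPM in CFAE+8+MSC and 513 and 480 CPM in CFAE+6, against 582 and 583 CPM in MEF. Its log2 fold change over MEF was -0.30 ± 0.044 (SE) in CFAE+8 (adjusted p = 6.86e-07), -0.23 in CFAE+6 (adjusted p = 4.09e-05) and -0.05 in CFAE+8+MSC (adjusted p = 0.369, 95% interval -0.136 to 0.0436). The interval in CFAE+8+MSC excludes a fall of the size seen in CFAE+8.

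The windows of the PRRX genes are shown because Prrx2 rose in the cocktails in which Prrx1 fell. They lie at chr2:30845117-30845416 (plus strand) for Prrx2, whose RefSeq start is downstream of the gene start in the count table, and at chr1:163313601-163313900 (minus strand) for Prrx1.
Prrx2: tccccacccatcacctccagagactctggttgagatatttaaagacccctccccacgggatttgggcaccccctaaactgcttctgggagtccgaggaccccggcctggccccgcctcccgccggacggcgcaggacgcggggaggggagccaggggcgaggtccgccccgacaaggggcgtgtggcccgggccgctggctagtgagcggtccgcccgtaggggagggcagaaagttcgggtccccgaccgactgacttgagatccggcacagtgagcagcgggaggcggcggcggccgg
Prrx1: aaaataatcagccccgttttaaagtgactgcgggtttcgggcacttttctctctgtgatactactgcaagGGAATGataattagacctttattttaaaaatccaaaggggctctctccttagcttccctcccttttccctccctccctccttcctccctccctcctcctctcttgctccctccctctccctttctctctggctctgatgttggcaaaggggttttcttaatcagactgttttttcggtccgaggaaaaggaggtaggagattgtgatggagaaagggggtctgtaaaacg
The Prrx2 window holds none of the 5 motifs, and the Prrx1 window holds GGAATG (in capitals) at -180. G and C make up 70.3% of the Prrx2 window and 47.7% of the Prrx1 window.

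Tcf21 (ENSMUSG00000045680; chr10:22817281-22820174, minus strand), a bHLH factor of kidney, lung and heart mesenchyme, was barely detected. It had 0 and 0 counts in CFAE+8, 0 and 1 count in CFAE+8+MSC and 0 and 0 counts in CFAE+6, against 4 and 3 counts in MEF. The 7 MEF counts were set against a floor of 3 counts in the group. The MEF level was 2.27-fold the floor in CFAE+8 and 2.25-fold that in CFAE+6. These ratios take the MEF count as exact and are not lower limits. The ratio of MEF over CFAE+8+MSC was 6.73, with an exact 95% counting interval of 0.865 to 303. In a fit without the filter on low counts, its adjusted p from edgeR was 0.143 for CFAE+8, 0.389 for CFAE+8+MSC and 0.144 for CFAE+6 against MEF, so no difference passed the test at this depth. The interval covers counting error only, and the ratios to the floor leave out the error of the MEF count.

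**Figure D2:**
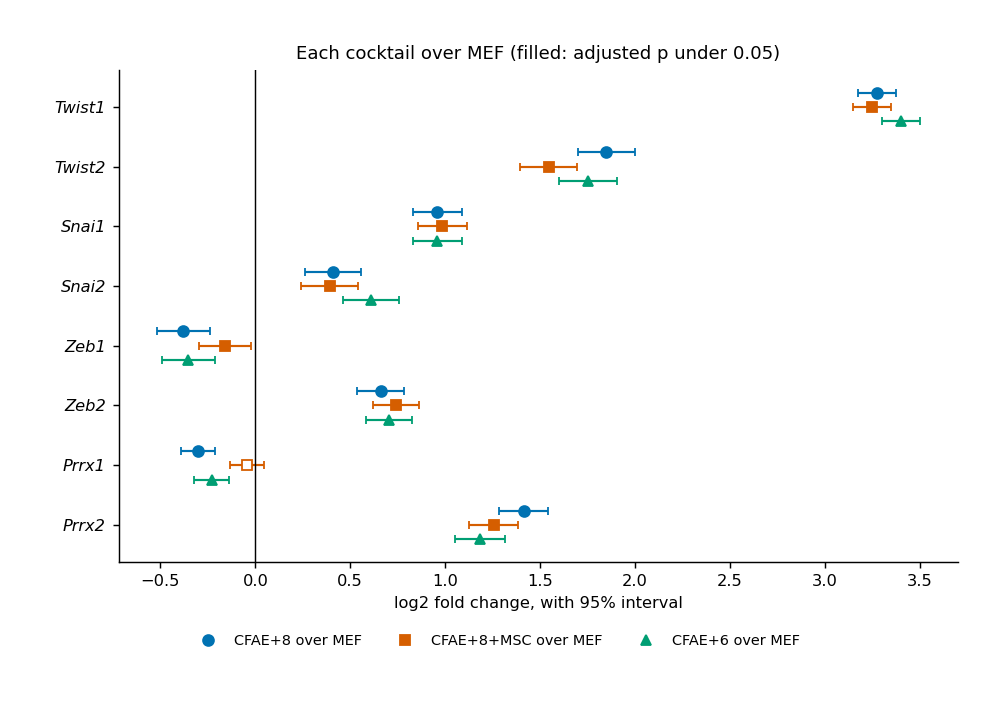
log2 fold change of the 8 tested factors (rows) in each cocktail over MEF, with 95% intervals; filled symbols have an adjusted p under 0.05. Twist1 lies between 3.25 and 3.40, Zeb1 and Prrx1 lie below 0, and only Prrx1 in CFAE+8+MSC is open.

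Adding the CDK8/CDK19 inhibitor to CFAE+8 lowered Twist2 and Prrx2 and raised Zeb1 and Prrx1. Of the 8 factors, 4 passed the test, where 29.3% of all tested genes did (15.6% higher and 13.8% lower in CFAE+8+MSC). Twist2 averaged 124 ± 6.84 CPM in CFAE+8+MSC and 153 ± 7.26 CPM in CFAE+8 (SD, n = 2 each), a log2 fold change of -0.30 ± 0.064 (SE, adjusted p = 0.000474). Its antisense neighbour Gm29100 had 66 and 62 counts in CFAE+8+MSC and 63 and 56 counts in CFAE+8. Prrx1 averaged 564 ± 8.25 CPM in CFAE+8+MSC and 472 ± 10.5 CPM in CFAE+8, a log2 fold change of 0.26 ± 0.044 (adjusted p = 3.53e-05). Both calls held under all 10 alternatives, with adjusted p-values of at most 0.0243 for Twist2 and at most 0.00357 for Prrx1.

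The other calls of that comparison were lost when single libraries were left out. Zeb1 averaged 94.3 ± 1.32 CPM in CFAE+8+MSC and 80.8 ± 8.05 CPM in CFAE+8, a log2 fold change of 0.22 ± 0.068 (adjusted p = 0.0137). The call was lost without CFAE+8 replicate 1 (0.13) and without CFAE+8+MSC replicate 2 (0.21), and its adjusted p ran from 0.00393 to 0.312 over the 10 alternatives. Prrx2 averaged 256 ± 13.8 CPM in CFAE+8+MSC and 286 ± 9.97 CPM in CFAE+8, a log2 fold change of -0.16 ± 0.059 (adjusted p = 0.044). That call was lost under 5 of 10 alternatives: DESeq2 size factors (-0.15), the DESeq2 test (-0.15), and without CFAE+8 replicate 1 (-0.12), CFAE+8 replicate 2 (-0.19) or CFAE+8+MSC replicate 1 (-0.10), with adjusted p-values from 0.0147 to 0.35 over all 10. Twist1 did not pass, with a log2 fold change of -0.02 and a 95% interval of -0.109 to 0.062. For Snai1 the interval was -0.0928 to 0.149, for Snai2 -0.159 to 0.126 and for Zeb2 -0.0364 to 0.198, so a fall of the size seen in Twist2 lies outside the intervals of these 4 genes.

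Replacing A-83-01 with E-616452 raised Twist1 and Snai2 and lowered Prrx2, and 3 of 8 factors passed, where 26.6% of all tested genes did (14.3% higher and 12.3% lower in CFAE+6). Twist1 averaged 1088 ± 61.2 CPM in CFAE+6 and 994 ± 7.90 CPM in CFAE+8 (log2 fold change 0.13 ± 0.042, adjusted p = 0.0205). Snai2 averaged 94.7 ± 3.14 CPM in CFAE+6 and 82.3 ± 3.84 CPM in CFAE+8 (log2 fold change 0.20 ± 0.068, adjusted p = 0.0275). Prrx2 averaged 244 ± 26.2 CPM in CFAE+6 and 286 ± 9.97 CPM in CFAE+8 (log2 fold change -0.23 ± 0.059, adjusted p = 0.00387). None of these calls held under every alternative. Without CFAE+8 replicate 1 all 3 were lost, at log2 fold changes of 0.14 for Twist1, 0.16 for Snai2 and -0.19 for Prrx2. The Twist1 call was also lost without CFAE+8 replicate 2 (0.12) or CFAE+6 replicate 2 (0.07), and the Snai2 and Prrx2 calls without CFAE+6 replicate 1 (0.17 and -0.12). The Snai2 call was lost with DESeq2 as well (0.21). Over the 10 alternatives the adjusted p ran from 0.0018 to 0.326 for Twist1, 0.0205 to 0.246 for Snai2 and 5.58e-05 to 0.172 for Prrx2. The 95% interval of the log2 fold change was -0.226 to 0.0331 for Twist2, -0.120 to 0.121 for Snai1, -0.114 to 0.168 for Zeb1, -0.0740 to 0.160 for Zeb2 and -0.0176 to 0.163 for Prrx1.

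Set directly against each other, CFAE+8+MSC and CFAE+6 differed in 4 of the 8 factors, where 10.5% of all tested genes passed (6.21% higher and 4.27% lower in CFAE+8+MSC). Prrx1 was higher in CFAE+8+MSC (564 ± 8.25 CPM) than in CFAE+6 (497 ± 23.2 CPM), with a log2 fold change of 0.18 ± 0.044 and an adjusted p of 0.00515. Twist1 (log2 fold change -0.15, adjusted p = 0.015), Twist2 (-0.21, adjusted p = 0.0358) and Snai2 (-0.22, adjusted p = 0.0379) were lower in CFAE+8+MSC. Without CFAE+6 replicate 2 none of the 4 passed, at log2 fold changes of 0.14 for Prrx1, -0.09 for Twist1, -0.15 for Twist2 and -0.25 for Snai2. Without CFAE+8+MSC replicate 1 the calls of Twist1 (-0.13) and Snai2 (-0.25) were lost, without CFAE+8+MSC replicate 2 those of Twist2 (-0.15) and Snai2 (-0.18), and without CFAE+6 replicate 1 that of Snai2 (-0.18). The DESeq2 test lost Snai2 and Twist2, and a fit to only the libraries compared lost Snai2, Twist1 and Twist2. Over the 10 alternatives the adjusted p ran from 0.000761 to 0.108 for Prrx1, 0.00172 to 0.27 for Twist1, 0.0163 to 0.302 for Twist2 and 0.0324 to 0.238 for Snai2. Zeb1 did not pass (0.20, adjusted p = 0.0656). In all 3 comparisons between cocktails, no factor changed by as much as 1 on the log2 scale, which 9.24%, 8.49% and 3.82% of all tested genes did.

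**Figure D3:**
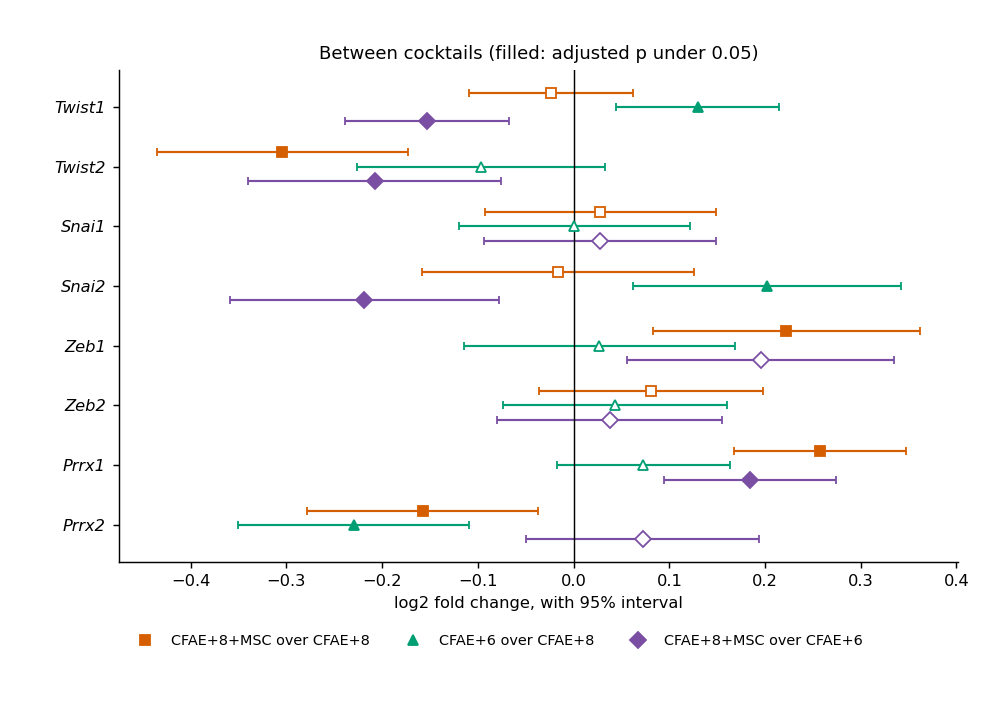
log2 fold change of the 8 tested factors (rows) between cocktails, with 95% intervals; filled symbols have an adjusted p under 0.05. The filled values run from -0.30 for Twist2 to 0.26 for Prrx1, both in CFAE+8+MSC over CFAE+8, and every symbol of Snai1 and Zeb2 is open.

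Levels of different genes were compared as CPM per kilobase of exon (CPM per kb). The exon length merges all annotated exons of a gene, at 11066 bases for Prrx1 and 1628 for Twist1. Orders and shares of genes depend on this length, and which transcripts were present was not tested. In CPM without it, Prrx1 led in MEF at 583 CPM, against 107 CPM for Prrx2 and 103 CPM for Twist1. In the cocktails Twist1 led by either measure. Per kb, Twist1 stood first in every group. It had 611 ± 4.85 CPM per kb for CFAE+8, 601 ± 14.3 for CFAE+8+MSC and 668 ± 37.6 for CFAE+6, against 63.2 ± 0.219 in MEF (SD, n = 2 each). Prrx2 followed, and Snai1 came next, in every group. In MEF these leading levels lay close together, at 54.7 CPM per kb for Prrx2 and 53.4 for Snai1, whose libraries overlapped those of Prrx1 at 52.6. Below them in MEF came Snai2 at 30.7, Twist2 at 13.4, Zeb1 at 10.2, Zeb2 at 4.89 and Tcf21 at 0.139 CPM per kb. In CFAE+8 the order after Twist1 was Prrx2 at 146 CPM per kb, Snai1 at 104, Twist2 at 48.3, Prrx1 at 42.7, Snai2 at 40.7, Zeb1 at 7.87 and Zeb2 at 7.73. The libraries of Prrx1 and Snai2 overlapped there, as did those of Zeb1 and Zeb2. With MSC2530818, Prrx1 at 51.0 CPM per kb came after Snai1, and Snai2 at 40.2 and Twist2 at 39.1 overlapped. In CFAE+6 Snai2 at 46.8, Twist2 at 45.2 and Prrx1 at 44.9 CPM per kb each overlapped the next. The place of Twist2 in these orders carries the uncertainty of its exon overlap.

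The balance within each pair of paralogues shifted in the same direction in all cocktail groups. The ratio of Twist1 to Twist2, in CPM per kb, was 12.7 ± 0.499 for CFAE+8, 15.4 ± 1.21 for CFAE+8+MSC and 14.8 ± 0.0326 for CFAE+6, against 4.73 ± 0.447 in MEF (SD, n = 2 each). The ratio of Prrx2 to Prrx1 was 3.42 ± 0.195 for CFAE+8, 2.56 ± 0.175 for CFAE+8+MSC and 2.78 ± 0.428 for CFAE+6, against 1.04 ± 0.00491 in MEF. The ratio of Zeb2 to Zeb1 was 0.988 ± 0.116 for CFAE+8, 0.890 ± 0.0238 for CFAE+8+MSC and 0.993 ± 0.0244 for CFAE+6, against 0.478 ± 0.0462 in MEF. Per merged exon length, the ZEB genes were thus near equal in the cocktails and Zeb1 prevailed in MEF. In CPM, Zeb2 had 154, 163 and 159 in CFAE+8, CFAE+8+MSC and CFAE+6, where Zeb1 had 80.8, 94.3 and 82.3. In MEF, Zeb2 had 97.5 CPM and Zeb1 105 CPM. The ratio of Snai1 to Snai2 was 2.55 ± 0.245 for CFAE+8, 2.62 ± 0.120 for CFAE+8+MSC and 2.22 ± 0.0880 for CFAE+6, against 1.75 ± 0.186 in MEF. No cocktail library overlapped MEF in any of the 4 ratios. Each ratio has the gene with the larger log2 fold change over MEF on top, so its upward direction follows from that choice. These ratios follow from the levels above and were not tested on their own, and that of the TWIST pair carries the uncertainty of Twist2.

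**Figure D4:**
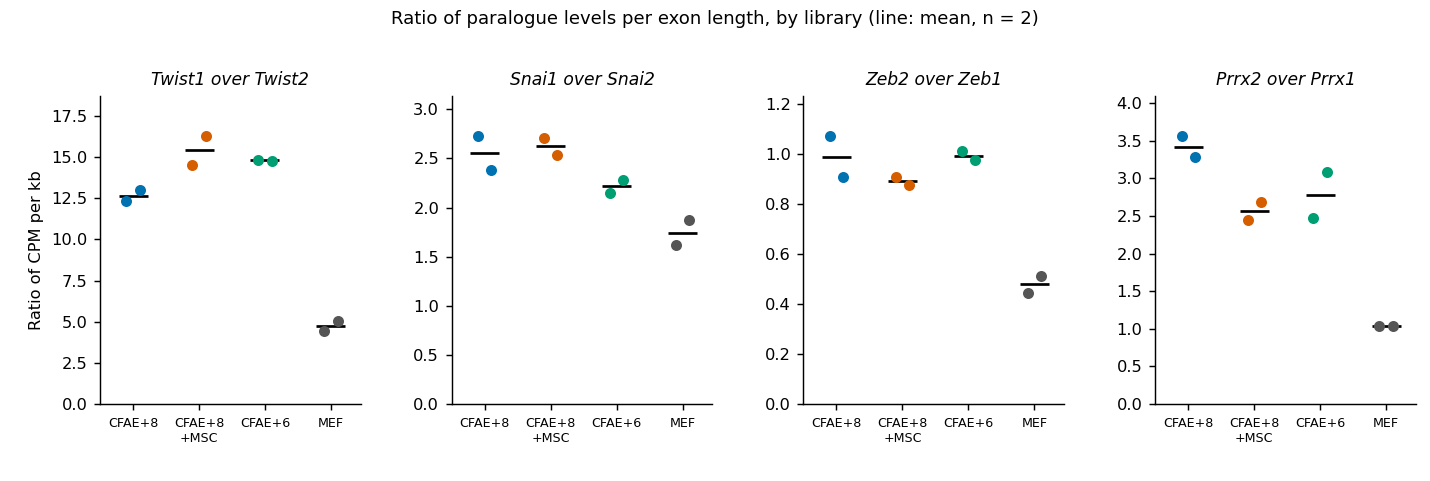
Ratio of paralogue levels in CPM per kb (vertical axes, from 0) in each library (points), with the mean of 2 libraries (line). Every cocktail point lies above the MEF points, whose means are 4.73, 1.75, 0.478 and 1.04. The gene with the larger log2 fold change over MEF is on top in each ratio.

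Twist1 alone made up 60.6% of the summed CPM per kb of the 9 genes for CFAE+8, 61.0% for CFAE+8+MSC and 63.7% for CFAE+6, against 22.3% in MEF. The sum was 1008 ± 13.8 CPM per kb for CFAE+8, 985 ± 8.57 for CFAE+8+MSC and 1049 ± 50.2 for CFAE+6, against 283 ± 2.02 in MEF. Without Twist1 it was 397, 384 and 381 CPM per kb in CFAE+8, CFAE+8+MSC and CFAE+6, against 220.1 in MEF.

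The count table assigns genes to classes of transcription factors, by the authors' annotation. Of 88 bHLH genes with any count, Twist1 had the highest level per kb in all 3 cocktails and held place 3 in MEF. By log2 fold change over MEF it held place 3 of 57 tested bHLH genes in CFAE+8 and place 4 in CFAE+8+MSC and CFAE+6. Of 178 homeobox genes with any count, Prrx2 had the highest level per kb in all 4 groups, while Prrx1 held place 7 for CFAE+8, 5 for CFAE+8+MSC and 6 for CFAE+6, against 2 in MEF. Of 539 genes of the C2H2 zinc finger class, Snai1 had the highest level per kb in all 3 cocktails and held place 5 in MEF. Snai2 held place 4 for CFAE+8, 5 for CFAE+8+MSC and 3 for CFAE+6, against 8 in MEF. These places describe rank and carry no test, and those by level per kb depend on the merged exon lengths.

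Genes whose mean profile over the 4 media was nearest to a factor were sought among 11303 genes, by the Euclidean distance between centred log2 CPM means. Twist1 lay nearest to Ndst3 (distance 0.0784), a heparan sulphate sulphotransferase, then Neto2 (0.164), an auxiliary subunit of kainate receptors, and Pdzrn4 (0.191). Ndst3 averaged 23.1 CPM in CFAE+8, 23.6 CPM in CFAE+8+MSC and 24.2 CPM in CFAE+6, against 2.23 CPM in MEF. Twist2 lay nearest to Rac3 (0.0615), a small GTPase, Snap91 (0.0681), a clathrin adaptor, and the homeobox gene Isl1 (0.0861). Prrx2 lay nearest to Palb2 (0.0258), a DNA repair partner of BRCA2, Mcm3 (0.0298), a subunit of the replicative helicase, and Ptpn13 (0.0414), a tyrosine phosphatase. Only 4 group means enter each distance, so nearness describes these profiles alone.

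Beyond the 9 factors, 31 genes of related lists are named with their group means, each over 2 libraries. Of these means, 106 were at least 5 CPM, and their SD had a median of 2.83% of the mean and reached 33.7% for Klf4. For lower means the SD was at most 0.729 CPM. The rises and falls of these 31 genes had adjusted p-values of at most 0.00884 over MEF and at most 0.0441 over CFAE+8 in edgeR's quasi-likelihood test.

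Most E protein and ID genes rose beside Twist1. Of 7 E protein and ID genes, 6 rose and 1 fell in each cocktail over MEF, with a median log2 fold change of 1.67 for CFAE+8, 1.71 for CFAE+8+MSC and 1.68 for CFAE+6. Of all tested genes, 30.8% to 31.9% rose and 31.3% to 32.2% fell over MEF. The E protein gene Tcf4 averaged 589 CPM in CFAE+8, 567 CPM in CFAE+8+MSC and 562 CPM in CFAE+6, against 172 CPM in MEF. The E protein gene Tcf12 averaged 561, 541 and 531 CPM in the same cocktails, against 165 CPM in MEF. Id1, whose protein sequesters E proteins, averaged 414 CPM in CFAE+8, 365 CPM in CFAE+8+MSC and 347 CPM in CFAE+6, against 74.5 CPM in MEF. Id4 was the member that fell, with 13.1 CPM in CFAE+8, 34.8 CPM in CFAE+8+MSC and 31.9 CPM in CFAE+6, against 45.3 CPM in MEF. It was higher in CFAE+8+MSC than in CFAE+8 (log2 fold change 1.41), and higher in CFAE+6 than in CFAE+8 (1.29). Id2 was likewise higher in CFAE+8+MSC (194 CPM) and in CFAE+6 (156 CPM) than in CFAE+8 (116 CPM), with 36.6 CPM in MEF. Against CFAE+8, 3 of the 7 rose and 2 fell in CFAE+8+MSC (29.3% of all tested genes passed), and 2 rose and 1 fell in CFAE+6 (26.6%). The 5 calls in CFAE+8+MSC over CFAE+8 dropped to 2 without CFAE+8 replicate 2 or CFAE+8+MSC replicate 1.

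Among 19 genes of corepressors and chromatin enzymes that SNAIL, ZEB or TWIST proteins recruit, 14 rose and 3 fell in CFAE+8 over MEF, 12 rose and 3 fell in CFAE+8+MSC, and 9 rose and 3 fell in CFAE+6. Their median log2 fold change was 0.28, 0.20 and 0.16 in CFAE+8, CFAE+8+MSC and CFAE+6. Over all tested genes, 30.8% to 31.9% rose and 31.3% to 32.2% fell against MEF. Ezh2, the H3K27 methyltransferase of Polycomb, averaged 82.3 CPM in CFAE+8, 87.5 CPM in CFAE+8+MSC and 79.8 CPM in CFAE+6, against 25.7 CPM in MEF. Suv39h1, an H3K9 methyltransferase, averaged 130.1 CPM in CFAE+8, 142 CPM in CFAE+8+MSC and 154.5 CPM in CFAE+6, against 26.1 CPM in MEF, with 14.6% of its exon length shared with another gene. Ajuba, a LIM protein that binds SNAIL, fell to 49.5 CPM in CFAE+8, 61.5 CPM in CFAE+8+MSC and 50.7 CPM in CFAE+6, against 113 CPM in MEF. Against CFAE+8, 1 rose and 5 fell in CFAE+8+MSC and 1 rose and 6 fell in CFAE+6, so 6 and 7 of the 19 passed where 29.3% and 26.6% of all tested genes did. Ctbp2, a corepressor that binds ZEB proteins, fell in both (log2 fold changes -0.38 and -0.36). The 6 calls in CFAE+8+MSC over CFAE+8 dropped to 3 without CFAE+8 replicate 1 or CFAE+8+MSC replicate 1, and the 7 in CFAE+6 over CFAE+8 to 4 without CFAE+8 replicate 2.

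Of 16 genes for the kinases and ubiquitin ligases that control stability of SNAIL and TWIST proteins, 4 rose and 1 fell in CFAE+8 over MEF, 4 rose and 3 fell in CFAE+8+MSC, and 5 rose and 4 fell in CFAE+6. Their median log2 fold change was 0.03 for CFAE+8, -0.03 for CFAE+8+MSC and -0.0029 for CFAE+6. Over MEF, 62.0%, 64.1% and 63.1% of all tested genes passed, with the cocktails in the same order. Gsk3b encodes a form of GSK-3, the kinase that CHIR99021 inhibits. It averaged 167 CPM in CFAE+8, 165 CPM in CFAE+8+MSC and 153 CPM in CFAE+6, against 159 CPM in MEF, and did not pass in any of the 3. Gsk3a, also a GSK-3 gene on the list, rose over MEF in all 3 cocktails. Its log2 fold changes were 0.40, 0.35 and 0.40 in the same order, with adjusted p-values of at most 5.18e-05 (edgeR). Of its exon length, 28.3% is shared with another gene. Lats2, a kinase of the Hippo pathway, had the largest called change of the list over MEF, falling to 25.4 CPM in CFAE+8, 28.7 CPM in CFAE+8+MSC and 25.1 CPM in CFAE+6, against 87.8 CPM in MEF, with 42.4% of its exon length shared with another gene. Fbxo45, a ubiquitin ligase subunit for these factors, averaged 42.3 CPM in CFAE+8, 40.8 CPM in CFAE+8+MSC and 43.7 CPM in CFAE+6, against 25.0 CPM in MEF. Against CFAE+8, 1 rose and 2 fell in CFAE+8+MSC (29.3% of all tested genes passed), and 2 rose and 2 fell in CFAE+6 (26.6%). Single libraries moved these small counts. The 7 calls over MEF in CFAE+8+MSC dropped to 4 without CFAE+8+MSC replicate 1, and the 9 in CFAE+6 to 5 without MEF replicate 1. The 3 calls in CFAE+8+MSC over CFAE+8 dropped to 0 without CFAE+8 replicate 1, CFAE+8 replicate 2 or CFAE+8+MSC replicate 1, and with DESeq2. The 4 calls in CFAE+6 over CFAE+8 dropped to 2 without CFAE+8 replicate 1, CFAE+8 replicate 2 or CFAE+6 replicate 2, and with DESeq2.

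Most genes of the mesenchymal programme fell in the same comparisons. Of 26 mesenchymal effector genes (matrix, integrins, cytoskeleton and proteases), 20 fell and 3 rose in CFAE+8 over MEF, 18 fell and 7 rose in CFAE+8+MSC, and 19 fell and 4 rose in CFAE+6. Their median log2 fold change over MEF was -1.43 for CFAE+8, -1.02 for CFAE+8+MSC and -1.31 for CFAE+6. Among all tested genes, 31.3% to 32.2% fell and 30.8% to 31.9% rose over MEF. Lox, which crosslinks collagen, fell to 23.2 CPM in CFAE+8, 40.3 CPM in CFAE+8+MSC and 39.8 CPM in CFAE+6, against 4254 CPM in MEF. Vim, which encodes the filament protein vimentin, fell less, to 2757 CPM in CFAE+8, 3144 CPM in CFAE+8+MSC and 2716 CPM in CFAE+6, against 3748 CPM in MEF. Cdh2, the N-cadherin gene, averaged 119 CPM in CFAE+8, 166 CPM in CFAE+8+MSC and 132 CPM in CFAE+6, against 113 CPM in MEF, and rose in the last 2 cocktails but did not pass in CFAE+8.

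Effector genes also differed between the cocktails. Of the 26, 17 rose and 5 fell in CFAE+8+MSC over CFAE+8, and in CFAE+6 over CFAE+8, 10 rose and 9 fell. Of all tested genes 15.6% rose and 13.8% fell in CFAE+8+MSC over CFAE+8, and 14.3% rose and 12.3% fell in CFAE+6 over CFAE+8. Acta2, smooth muscle actin, averaged 1268 CPM in CFAE+8+MSC and 602 CPM in CFAE+6, against 64.4 CPM in CFAE+8, and fell in all 3 cocktails relative to its 2664 CPM in MEF. Postn, the matrix protein periostin, averaged 341 CPM in CFAE+8+MSC and 315 CPM in CFAE+6, against 32.3 CPM in CFAE+8, with 352 CPM in MEF, and its fold change over MEF did not pass in CFAE+8+MSC. In CFAE+8+MSC and CFAE+6 over CFAE+8, Twist1 had log2 fold changes of -0.02 and 0.13, and Acta2 had 4.30 and 3.22. The median of the 26 effector genes was 0.21 and -0.008.

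The epithelial junction and keratin genes, the classical targets of repression, changed in both directions. Of 27 listed genes 17 were tested. Of these, 2 rose and 9 fell in CFAE+8 over MEF, 5 rose and 10 fell in CFAE+8+MSC, and 6 rose and 6 fell in CFAE+6. The shares over all tested genes were 30.8% to 31.9% higher and 31.3% to 32.2% lower than in MEF. Dsp, the desmosome protein desmoplakin, rose to 200.3 CPM in CFAE+8, 192 CPM in CFAE+8+MSC and 140.5 CPM in CFAE+6, against 17.1 CPM in MEF. The polarity gene Llgl2 fell to 1.74 CPM in CFAE+8, 2.04 CPM in CFAE+8+MSC and 1.91 CPM in CFAE+6, against 17.4 CPM in MEF. Cdh1 was low in every library group, at 0.170 CPM in CFAE+8, 1.06 CPM in CFAE+8+MSC and 1.61 CPM in CFAE+6, against 0.378 CPM in MEF. Its log2 fold change over MEF passed the test in CFAE+6 (2.11) and not in CFAE+8 (-1.14) or CFAE+8+MSC (1.51). Krt19, a keratin of simple epithelia that is also a mesothelial marker, averaged 10.4 CPM in CFAE+8+MSC and 10.7 CPM in CFAE+6, against 1.57 CPM in CFAE+8. Its mean in MEF was 11.5 CPM, and its fold change over MEF passed in CFAE+8 but not in CFAE+8+MSC (adjusted p = 0.474) or CFAE+6 (adjusted p = 0.629, edgeR). Of the 17, 7 rose and 2 fell in CFAE+8+MSC over CFAE+8, and in CFAE+6 over CFAE+8 likewise 7 rose and 2 fell. In those comparisons 15.6% and 14.3% of all tested genes rose, and 13.8% and 12.3% fell. The 10 epithelial markers summed to 41.9 to 45.8 CPM in CFAE+8+MSC and 39.2 to 39.5 CPM in CFAE+6, against 11.03 to 11.8 CPM in CFAE+8, with 20.0 to 23.7 CPM in MEF.

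Of 17 regulators of epithelial identity, 7 were tested. In CFAE+8 over MEF 1 rose and 5 fell, and in CFAE+8+MSC and in CFAE+6 2 rose and 3 fell. Over MEF, 30.8% to 31.9% of all tested genes rose and 31.3% to 32.2% fell. Tfap2c, an AP-2 factor of trophoblast and surface ectoderm, averaged 18.7 CPM in CFAE+8, 71.0 CPM in CFAE+8+MSC and 70.9 CPM in CFAE+6, against 0.139 CPM in MEF. Klf4, an epithelial and reprogramming factor, fell to 11.4 CPM in CFAE+8, 16 CPM in CFAE+8+MSC and 12.1 CPM in CFAE+6, against 158 CPM in MEF. Of the 7, 4 rose and 0 fell in CFAE+8+MSC over CFAE+8, and in CFAE+6 over CFAE+8, 2 rose and 0 fell. The shares of all tested genes that rose there were 15.6% and 14.3%, and 13.8% and 12.3% fell. The 5 calls in CFAE+6 over MEF dropped to 3 without MEF replicate 2.

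Other transcription factors of mesenchyme changed in both directions. Of 30 tested among 33 listed, 11 rose and 16 fell in CFAE+8 over MEF, 15 rose and 10 fell in CFAE+8+MSC, and 14 rose and 12 fell in CFAE+6, with median log2 fold changes of -0.38, 0.23 and 0.04. For all tested genes, the shares over MEF were 30.8% to 31.9% higher and 31.3% to 32.2% lower. Msx1, a homeobox factor of limb and neural crest mesenchyme, rose to 202 CPM in CFAE+8, 333 CPM in CFAE+8+MSC and 277 CPM in CFAE+6, against 2.39 CPM in MEF. Lef1, a nuclear partner of beta-catenin, rose to 93.9 CPM in CFAE+8, 119 CPM in CFAE+8+MSC and 111 CPM in CFAE+6, against 1.22 CPM in MEF, with 13.7% of its exon length shared with another gene. Scx, the tendon factor scleraxis, fell to 1.45 CPM in CFAE+8, 0.620 CPM in CFAE+8+MSC and 1.60 CPM in CFAE+6, against 25.2 CPM in MEF. In CFAE+8+MSC over CFAE+8, 18 of the 30 rose and 3 fell, and in CFAE+6 over CFAE+8, 15 rose and 3 fell, where 15.6% and 14.3% of all tested genes rose and 13.8% and 12.3% fell. Hand1, a bHLH factor of heart and trophoblast, averaged 5.30 CPM in CFAE+8+MSC and 2.57 CPM in CFAE+6, against 0.852 CPM in CFAE+8 and 0.375 CPM in MEF. The 18 calls in CFAE+6 over CFAE+8 dropped to 11 without CFAE+8 replicate 2.

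Genes known as readouts of the pathways that the cocktails target changed in both directions. Of 15 such genes 10 rose and 4 fell in CFAE+8 over MEF, 10 rose and 4 fell in CFAE+8+MSC, and 10 rose and 5 fell in CFAE+6. Among all tested genes, 30.8% to 31.9% rose and 31.3% to 32.2% fell over MEF. Nkd1, a feedback target of Wnt signalling, averaged 668 CPM in CFAE+8, 575 CPM in CFAE+8+MSC and 566 CPM in CFAE+6, against 6.72 CPM in MEF. Stra6, a retinoic acid target, averaged 745 CPM in CFAE+8, 495 CPM in CFAE+8+MSC and 389 CPM in CFAE+6, against 0.236 CPM in MEF. Ctgf, a target of TGF-beta and YAP signalling, fell to 8.17 CPM in CFAE+8, 48.5 CPM in CFAE+8+MSC and 17.6 CPM in CFAE+6, against 603 CPM in MEF, with 23.2% of its exon length shared with another gene. The feedback inhibitor Smad7 averaged 69.4 CPM in CFAE+8, 79.3 CPM in CFAE+8+MSC and 57.2 CPM in CFAE+6, against 91.5 CPM in MEF. Of the 15, 7 rose and 3 fell in CFAE+8+MSC over CFAE+8, and in CFAE+6 over CFAE+8, 4 rose and 5 fell. In those comparisons 15.6% and 14.3% of all tested genes rose, and 13.8% and 12.3% fell. The 10 calls in CFAE+8+MSC over CFAE+8 dropped to 6 without CFAE+8 replicate 1 and with DESeq2, and to 5 without CFAE+8+MSC replicate 1.

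**Figure D5:**
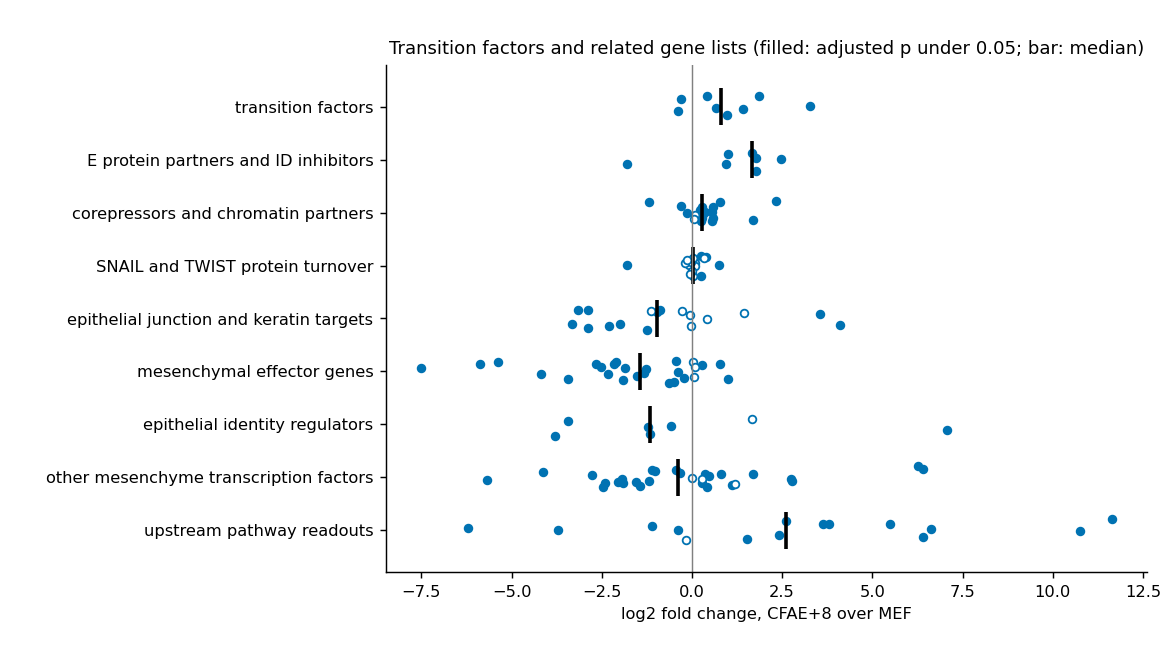
log2 fold change in CFAE+8 over MEF of each tested gene (points) of the transition factors and of 8 gene lists (rows), with the median of each (bar); filled points have an adjusted p under 0.05. The transition factors have a median of 0.81 and the mesenchymal effector genes one of -1.43.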

How the data were processed

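Per the labels' protocols, total RNA of the fibroblasts came from an EasyPure kit, and libraries from the NEBNext Ultra RNA kit, which does not mark strand. How the counting treated strand is not stated in those sources. The authors deposited raw counts per gene. The submitters' processing notes name featureCounts, Subread, DESeq2 and mm10, and the aligner is not stated. Coordinates and gene lengths are those of the deposited table, and exon overlaps came from GENCODE M21.

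Of 28024 genes with any count, filterByExpr (edgeR 4.0.16, R 4.3.3) retained 15470, and libraries were scaled with TMM factors. The main test was the quasi-likelihood F test of edgeR, fitted with a mean for each group to all 8 libraries, 4 residual degrees of freedom and a common biological coefficient of variation of 0.0445, with adjustment over all tested genes. The SE is the size of the coefficient over the square root of F. Replicate pairs of a group differed by more than sampling noise, so all libraries were counted. Replicate numbers do not pair libraries across groups in the labels.

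The 9 genes, the gene lists and the tests were chosen with earlier results of these data known. List genes were named by a rule: up to 3 called genes per list and comparison with the largest log2 fold change, at 5 CPM or more in 1 of the groups compared. Not all of them are printed. Tcf12, Gsk3b, Cdh1, Cdh2, Vim and Smad7 lie outside it and were chosen after their values were seen. Genes of similar profile were printed for factors whose group means span at least 1 on the log2 scale. Promoter windows were matched by symbol for 7 of the 9 genes, and Snai2 and Zeb1 are named only. Alternatives were DESeq2 1.42.0 size factors and test, no filter, a filter of 1 CPM in 2 libraries, only the libraries compared, a replicate block and leaving out each library. Where a library was left out, the lone library of its group was assumed to vary like the other groups.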

Additional observations from a re-analysis of the deposited data

How the results depend on the processing

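Of 480 alternative log2 fold changes of the 8 tested factors, 432 kept their direction and their side of the threshold, 36 kept their direction and lost the call, and 12 changed sign. Against MEF, 233 of 240 were kept and 0 changed sign, and the other 7 were those of Zeb1 in CFAE+8+MSC. All 12 sign changes were of values near 0 that had not passed the test. With 1 library left out, CFAE+8+MSC over CFAE+8 gave log2 fold changes of -0.0433 to 0.0039 for Twist1, -0.0535 to 0.112 for Snai1 and -0.0600 to 0.0356 for Snai2. Likewise CFAE+6 over CFAE+8 gave -0.0474 to 0.0528 for Snai1 and -0.0703 to 0.134 for Zeb1, and without the filter -0.000915 for Snai1. In the same way CFAE+8+MSC over CFAE+6 gave -0.0558 to 0.1095 for Snai1, -0.0041 to 0.0802 for Zeb2 and -0.0328 to 0.187 for Prrx2. With 1 library left out, the number of factors called ranged from 2 to 3 in CFAE+8+MSC over CFAE+8, from 0 to 2 in CFAE+6 over CFAE+8 and from 0 to 3 in CFAE+8+MSC over CFAE+6. It was 2 with DESeq2 and 1 with only the libraries compared in CFAE+8+MSC over CFAE+6. Over all genes, leaving out a library gave 2720 to 3373 calls in CFAE+6 over CFAE+8, where all libraries gave 4116. It gave 947 to 1451 calls in CFAE+8+MSC over CFAE+6, where all libraries gave 1621 and DESeq2 gave 997. These fits had fewer samples; the cause of the other shifts was not tested. With the replicate number as a block, the number of factors called stayed at 8, 7 and 8 over MEF in CFAE+8, CFAE+8+MSC and CFAE+6, and at 4, 3 and 4 between cocktails. Same-numbered libraries of different groups deviated together little, with correlations over 15470 genes between -0.021 and 0.051. Of 480 alternative counts of called list members, 437 stayed within 1.5 times. Scaling with DESeq2 size factors moved the median of all genes by at most 0.0077 on the log2 scale. Among the 9 genes, only Tcf21 had too few counts to be tested at this depth.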
